A study of Mus musculus with 3 samples.

Results

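The interferon regulatory factor (IRF) genes described here are the 8 with the symbols Irf1, Irf2, Irf3, Irf4, Irf5, Irf7, Irf8 and Irf9. They were taken by symbol, with no threshold on their values, from 55536 annotated genes, of which 22028 are protein-coding. The family itself was chosen with earlier results of these data known. The libraries form 1 group: RNA bound to chromatin, depleted of ribosomal RNA, from macrophages that were grown from C57BL/6J bone marrow and given 100 ng/ml lipid A for 120 min. Lipid A anchors lipopolysaccharide in the bacterial membrane and is sensed by the receptor TLR4. The 3 libraries, labelled biological replicates 1, 2 and 3, share a donor label and are not stated to be separate cultures, so their spread may be technical. No allele or agent other than lipid A is labelled, sex and age were not collected, and no untreated level was analysed here, so the values describe stimulated cells and no response to lipid A.

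IRF proteins share a DNA-binding domain at their amino terminus that recognises repeats of GAAA, the core of the interferon-stimulated response element (ISRE). Irf3, Irf5 and Irf7 are held in the cytoplasm until kinases downstream of Toll-like receptors and nucleic acid sensors phosphorylate them, whereas Irf1, Irf2, Irf4, Irf8 and Irf9 act mainly through their amount or their partners. In macrophages the family carries the signal of TLR4 to the interferon beta gene, the response of neighbouring cells to that interferon, and part of macrophage identity itself. Chromatin-bound RNA is rich in transcripts still being made or spliced. Their share was not measured in these libraries, which also held RNAs taken as cytoplasmic, so the levels given here are not rates of synthesis.

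The libraries held 19751051 to 21984526 expected counts in annotated genes, and the members together took 0.192% ± 0.0340 of them (SD, n = 3). Replicates 1, 2 and 3 started from 1000 ng, 250 ng and 500 ng of RNA, an amount that cannot be told apart from the replicate. All 10 macrophage markers had a mean of at least 1 TPM (transcript abundance scaled by length and by the library's total). The highest was Lyz2 at 334 TPM, a value set by replicate 2, since it had 88.9, 873 and 39.0 TPM in replicates 1, 2 and 3. Without replicate 2 its mean was 63.9 TPM and Adgre1 was the highest macrophage marker at 170.2 TPM. At a mean of at least 1 TPM stood 0 of 5 B cell markers, 1 of 4 plasma cell markers (Prdm1, 8.39 TPM) and 1 of 5 T cell markers (Cd4, 3.47 TPM). So did 0 of 5 conventional dendritic cell and 2 of 5 plasmacytoid dendritic cell markers. The last 2 were Bst2, at a mean of 38.1 TPM, and Tcf4, at 168, 189 and 288 TPM in replicates 1, 2 and 3. The Tcf4 mean of 215 TPM was above that of each macrophage marker except Lyz2. Cd3e, Cd3g, Mzb1, Cd209a and Klk1 were listed at 0. The 7 RNAs taken as cytoplasmic were mt-Co1, mt-Nd6, Rplp1, Rps14, Eef1a1, B2m and again Lyz2. Their summed level was 460, 3563 and 487 TPM in replicates 1, 2 and 3, so replicate 2 stood apart. The part of replicate 2 in the results was not tested except by leaving it out. The summed macrophage markers were also highest in replicate 2, with 476, 1554 and 365 TPM. Lyz2, at 873 TPM in replicate 2, is counted in both sums, so they are not separate observations.

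The promoter sequences of the family were searched for 3 motifs through which interferon and TLR4 signals are known to reach genes. RefSeq windows on GRCm38.p6, of 250 bases before to 50 bases after the start of transcription, matched 8 of 8 members with 11 windows. On either strand, the ISRE core (GAAA, any 2 bases, GAAA) was in 1 window (Irf2), the gamma-activated site TTCNNNGAA in 3 windows (Irf1, Irf2 and Irf8), and the kappaB motif of NF-kB in 2 windows (Irf1 and Irf2). Among all 32851 windows of the same length, 3.44% held the ISRE core, 8.30% the gamma-activated site and 8.46% the kappaB motif. The stretches with a match are printed here because Irf1, Irf8 and Irf2 are also 3 of the 4 members with the highest levels; capitals mark the motifs and all stretches are on the plus strand, 5′ to 3′.
Irf1 promoter, chr11:53769904-53770030: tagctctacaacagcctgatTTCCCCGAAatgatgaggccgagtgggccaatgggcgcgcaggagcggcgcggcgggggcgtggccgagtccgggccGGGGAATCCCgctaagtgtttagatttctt
Irf2 promoter, upstream stretch, chr8:46739495-46739549: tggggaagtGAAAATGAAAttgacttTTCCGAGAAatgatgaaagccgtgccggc
Irf2 promoter, stretch at the start, chr8:46739708-46739757: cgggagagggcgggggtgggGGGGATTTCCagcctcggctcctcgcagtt
Irf8 promoter, chr8:120736167-120736233: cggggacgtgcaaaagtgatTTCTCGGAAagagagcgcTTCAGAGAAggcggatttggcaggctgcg
In Irf1 the gamma-activated site came first and the kappaB motif lay next to the start. In Irf2 the ISRE core and the gamma-activated site lay side by side near the upstream end of the window, and in Irf8 both matches were gamma-activated sites. A match describes letters only, binding was not measured, and for Irf3, Irf4, Irf5, Irf7 and Irf9 the result says only that these letters are not in these windows.

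By level, 7 of 8 members averaged 1 TPM or more, where 41.5% of protein-coding genes did, and the count was also 7 without replicate 2. Irf1 and Irf8 together held 66.2% ± 1.90 of the family's summed TPM of 1190.1 ± 275, and with Irf7 they held 81.0% ± 0.323 (SD, n = 3). The median over members was 79.8 TPM, against 0.277 TPM over all protein-coding genes and 7.53 TPM over those with at least 1 TPM. In bulk samples, fewer cells of a type and less RNA per cell cannot be told apart.

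Among the members that bind the response element without prior phosphorylation in the cytoplasm, Irf1 (chromosome 11, 53770014 to 53778374, plus strand, mm10) was the highest of the family. It encodes an activator of interferon, antiviral and antigen presentation genes. Its level was 439, 537 and 629 TPM in replicates 1, 2 and 3, a mean of 535 ± 94.8 TPM that ranked 27 among protein-coding genes. Irf2 (chromosome 8, 46739732 to 46847458, plus strand) encodes the factor that competes with IRF1 for the same sites. It had 91.0, 94.4 and 145 TPM, with replicate 3 above the others, a mean of 110.1 ± 30.2 TPM and rank 362. Irf9 (chromosome 14, 55603571 to 55610030, plus strand) encodes the DNA-binding subunit of the ISGF3 complex, which also holds STAT2 and is the mediator of the type I interferon response. It had 33.2, 39.9 and 43.2 TPM, a mean of 38.8 ± 5.11 TPM and rank 1232.

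Among the members that signalling activates directly, Irf7 (chromosome 7, 141262706 to 141266481, minus strand), which encodes the amplifier of type I interferon production, was the highest. It had 129, 158 and 248 TPM, highest in replicate 3, with a mean of 179 ± 62.2 TPM and rank 179. Irf5 (chromosome 6, 29526625 to 29541871, plus strand) encodes a factor that acts downstream of MyD88 on inflammatory cytokine genes. It had 36.7, 49.1 and 62.9 TPM, a mean of 49.5 ± 13.1 TPM and rank 953. Irf3 (chromosome 7, 44997648 to 45002848, plus strand) encodes the factor that TBK1 phosphorylates after TLR4 signals through TRIF. It had 17.2, 30.2 and 35.4 TPM, a mean of 27.6 ± 9.40 TPM and rank 1764, with replicate 1 below the others.

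The remaining pair, Irf8 and Irf4, encodes factors that need a partner such as PU.1 on composite sites, and it held the second highest and the lowest level of the family. Irf8 (chromosome 8, 120736358 to 120756694, plus strand), a determinant of the monocyte and macrophage lineage, had 211, 208 and 330.2 TPM, a mean of 249.9 ± 69.6 TPM and rank 104, with replicate 3 above the others. Irf4 (chromosome 13, 30749226 to 30766976, plus strand), known for plasma cell differentiation and for alternatively activated macrophages, had 0.40, 0.78 and 0.52 TPM. Its mean of 0.567 ± 0.194 TPM, rank 10044, rested on 43, 74 and 52 expected counts. It was between 0.46 and 0.65 TPM when any library was left out. By TPM replicate 3 was the highest library for 7 members and replicate 2 for Irf4. The share of all genes highest in each library was not computed. The median TPM of each pathway list described below was also highest in replicate 3, with 120, 137 and 190 TPM for the target genes. The median of the macrophage markers was highest in replicate 2, with 25.0, 63.1 and 18.3 TPM.

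**Figure D1:**
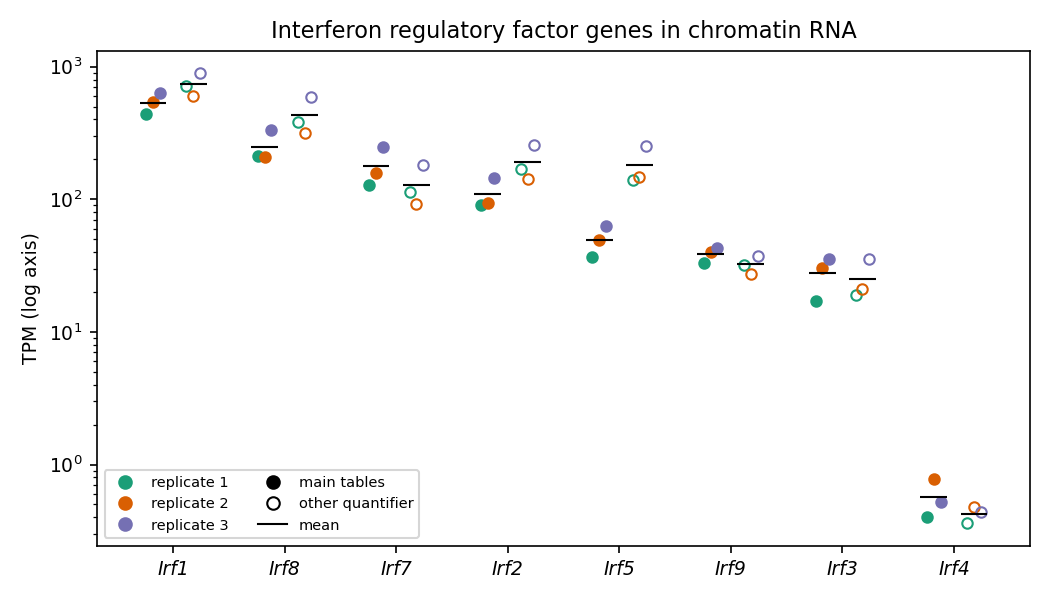
Level of each member in TPM on a log axis, with a point per library, filled for the main tables and open for the other deposited quantification, and a bar for each mean. From Irf1 at a mean of 535 TPM to Irf3 at 27.6 TPM the filled points form a descending series, Irf4 lies apart at 0.567 TPM, and Irf5 is the member whose open points lie farthest above its filled ones.

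The order Irf1, Irf8, Irf7, Irf2, Irf5, Irf9, Irf3, Irf4 was the same in 3 of 3 libraries. The ranges over libraries were apart for 3 of 7 neighbouring pairs, namely Irf1 over Irf8, by 1.12 ± 0.23 on the log2(TPM + 0.1) scale, Irf2 over Irf5, by 1.15 ± 0.19, and Irf3 over Irf4, by 5.35 ± 0.42 (SD, n = 3). For the other pairs the ranges overlapped, with differences of 0.51 ± 0.18 for Irf8 over Irf7, 0.68 ± 0.15 for Irf7 over Irf2, 0.33 ± 0.20 for Irf5 over Irf9 and 0.54 ± 0.35 for Irf9 over Irf3. For each pair the exact sign-flip test, two-sided, returned p = 0.25, before and after Benjamini-Hochberg adjustment over the 7 pairs, and 0.25 is the smallest p that 3 libraries allow, so no neighbours are told apart by it.

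The other deposited quantification, made directly from the reads, gave the order Irf1, Irf8, Irf2, Irf5, Irf7, Irf9, Irf3, Irf4 in replicates 1 and 3, with Irf5 ahead of Irf2 in replicate 2. In it Irf5 was at 140.4, 148 and 253 TPM, a mean of 181 ± 63.0 TPM that was 3.65 times the mean of the main tables. Irf7 was at 129 ± 46.0 TPM, so Irf7 minus Irf2 turned to -0.58 on the log2 scale. The place of Irf5 and the order of Irf7 and Irf2 therefore depend on the quantification, whereas Irf1 and Irf8 led and Irf4 was last in every library of both.

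Next it was asked which members differed between the libraries by more than counting error, with a chi-square test of homogeneity of expected counts scaled by trimmed-mean (TMM) factors, adjusted by Benjamini-Hochberg over 14200 genes. At an adjusted p under 0.05, 7 of 8 members were called, where 68.8% of all tested genes were. The coefficient of variation of the scaled counts had a median of 13.4% over members and 23.2% over all tested genes. It includes counting error, and genes of similar count were not compared. Raising the count minimum from 10 to 50 lowered the all-gene median to 19.6%, and 80.2% of genes were then called. Over members and all genes the medians were 22.1% and 25.7% with library totals and 12.3% and 22.9% with DESeq2 size factors. With the other quantification they were 13.0% and 20.0%. Irf9, with 86.7, 82.1 and 83.9 CPM (counts scaled to a fixed library total, not by length) in replicates 1, 2 and 3, varied by 2.70% (adjusted p = 0.358 in this chi-square test over all genes). Irf1 had 703, 664 and 673 CPM, and its variation of 3.05% was called at 14142 mean counts (adjusted p = 1.58e-05). These low values hold for TMM scaling of the main tables. The variation of Irf1 was 7.17% with DESeq2 size factors, 7.49% with library totals, 8.73% without replicate 3 and 15.7% with the other quantification, and that of Irf9 was 6.81%, 8.06%, 8.40% and 15.5% under the same settings.

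Replicate 3 was the highest library by CPM for 5 members, replicate 1 for Irf1 and Irf9, and replicate 2 for Irf4. The departure of a library is its log2 CPM minus the mean of the others. Its median in replicates 1, 2 and 3 was -0.20, -0.06 and 0.22 over members and -0.12, 0.07 and 0.01 over all genes tested. Irf2 had 117, 118 and 167 CPM, so replicate 3 stood 0.51 above the mean of the others on the log2 scale. Irf7 had 268, 287 and 364 CPM, a departure of 0.39 in replicate 3. Irf8 had 576, 480.4 and 683 CPM, with replicate 2 lowest at a departure of -0.38 and replicate 3 highest at 0.38. Smaller departures of replicate 3 were found for Irf5, with 92.3, 97.2 and 112 CPM, and Irf3, with 19.1, 21.8 and 23.4 CPM. Irf4 had 2.39, 3.62 and 2.16 CPM and a departure of 0.65 in replicate 2, the library in which the 7 cytoplasmic RNAs had a median departure of 2.56. The part of cytoplasmic RNA in the Irf4 value was not tested.

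**Figure D2:**
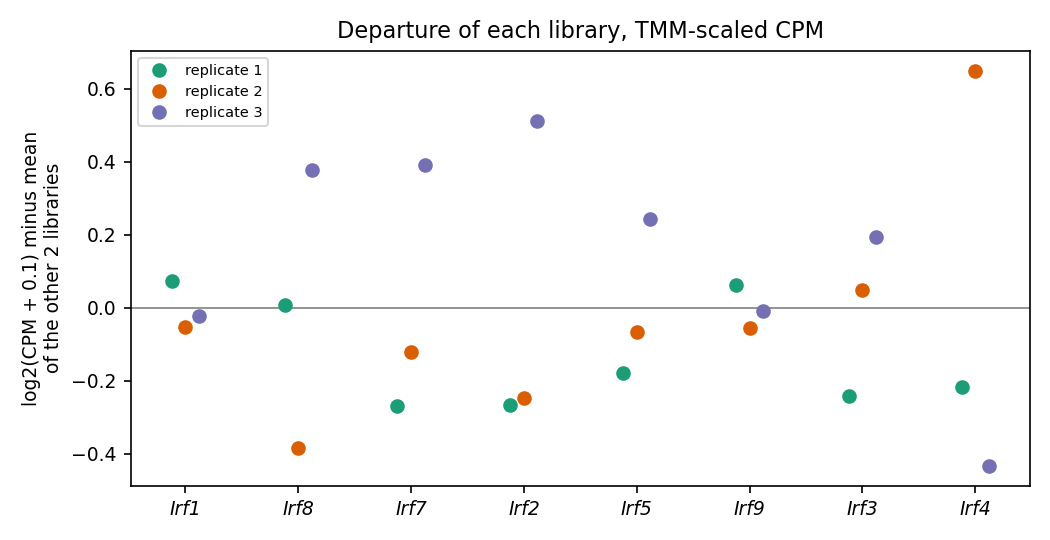
Departure of each library from the mean of the other 2 libraries, as log2(CPM + 0.1) with TMM scaling, for each member. Replicate 3 is the highest point for Irf8, Irf7, Irf2, Irf5 and Irf3, replicate 2 is the highest for Irf4 at 0.65, and the points of Irf1 and Irf9 lie close to 0.

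Without replicate 3, 3 members were called, where 47.7% of 14022 genes were, namely Irf1, Irf8 and Irf9, the last with an adjusted p of 0.00225 by the chi-square test, while the adjusted p of Irf7, Irf2, Irf5, Irf3 and Irf4 was between 0.106 and 0.925. Without replicate 1, where 47.5% of genes were called, Irf1 and Irf3 lost the call, at adjusted p = 0.315 and 0.397, and without replicate 2, where 54.7% were, Irf4 did, at 0.693. Irf3 also lost it with DESeq2 size factors, at 0.109, and with the other quantification, at 0.634, while Irf9 was called with DESeq2 size factors (0.00131), library totals (2.17e-05) and the other quantification (9.19e-22).

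Chromatin RNA also shows how much of a gene's signal is assigned to isoforms that keep an intron. In such RNA, introns not yet spliced and introns kept in finished transcripts cannot be told apart, so this signal may hold either. For each gene with both classes annotated, the summed TPM of retained-intron isoforms was set against that of protein-coding isoforms, and the log2 ratio with a pseudocount of 0.1 was tested against 0 by limma over 5602 genes. Of the 6 members with both classes, 3 were higher in retained-intron isoforms and 1 was lower, where 19.4% of tested genes were higher and 29.8% lower. The median ratio was 0.73 over these members and -0.23 over all genes tested. With the other quantification 2 members were higher and 2 lower, where 35.8% of 7057 genes were higher and 30.9% lower, and the median was 0.14 over members and 0.12 over all genes. Irf4 and Irf5 have no isoform annotated with a retained intron and could not be tested.

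Irf7 had the largest ratio of the family. Its retained-intron isoforms were at 111, 133 and 214 TPM and its protein-coding isoforms at 17.5, 23.6 and 33.2 TPM in replicates 1, 2 and 3. The classes were apart in every library, retained-intron isoforms held 85.5% ± 1.07 of the gene's TPM, and the log2 ratio was 2.61 ± 0.26 (SE, limma adjusted p = 0.00134), or 6.13-fold. With the other quantification the ratio was 3.01 (adjusted p = 9.50e-05), and Irf7 kept its call when each library was left out in turn.

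Irf3 followed, with 11.95, 21.7 and 25.0 TPM in retained-intron isoforms and 5.24, 8.54 and 10.45 TPM in protein-coding isoforms. The ranges were apart, the retained share was 70.6% ± 1.12, and the log2 ratio was 1.25 ± 0.26 (limma adjusted p = 0.0111) and 1.19 with the other quantification. Irf2 had 58.6, 63.1 and 97.6 TPM in retained-intron isoforms and 29.7, 28.6 and 41.65 TPM in protein-coding isoforms, a log2 ratio of 1.12 ± 0.27 (adjusted p = 0.0168). With the other quantification the Irf2 ratio reversed to -0.999 (adjusted p = 0.0112) and the retained share was 32.7% ± 3.86 in place of 66.2% ± 1.56, so its direction is set by the quantification.

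Irf1 was the member with the lower ratio. Its retained-intron isoform had 119, 168 and 204 TPM and its protein-coding isoforms 307, 366 and 423 TPM, with the ranges apart. The log2 ratio was -1.18 ± 0.27 (limma adjusted p = 0.0142), the retained share was 30.2% ± 2.79, and with the other quantification the ratio was -2.03 and the share 16.8% ± 1.75. The calls of Irf1, Irf2 and Irf3 were lost without replicate 1, at limma adjusted p = 0.0837, 0.0695 and 0.0576, and without replicate 2, at 0.0614, 0.0919 and 0.0615, while their ratios moved by less than their SE. Calls over all tested genes fell as well, from 19.4% higher and 29.8% lower. Without replicate 1, 11.5% were higher and 16.8% lower, and without replicate 2, 16.9% and 22.8%.

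For Irf8 and Irf9 the classes overlapped. Irf8 had 99.7, 110.1 and 186 TPM in retained-intron isoforms and 94.2, 85.8 and 125 TPM in protein-coding isoforms, a log2 ratio of 0.34 ± 0.27 (limma adjusted p = 0.343). Irf9 had 17.1, 21.8 and 23.5 TPM in retained-intron isoforms and 16.1, 18.1 and 19.7 TPM in protein-coding isoforms, a log2 ratio of 0.20 ± 0.26 (adjusted p = 0.558). With the other quantification the retained share of Irf8 was 33.3% ± 0.456, in place of 52.1% ± 4.57, and of Irf9 54.9% ± 0.786, in place of 53.5% ± 1.78.

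**Figure D3:**
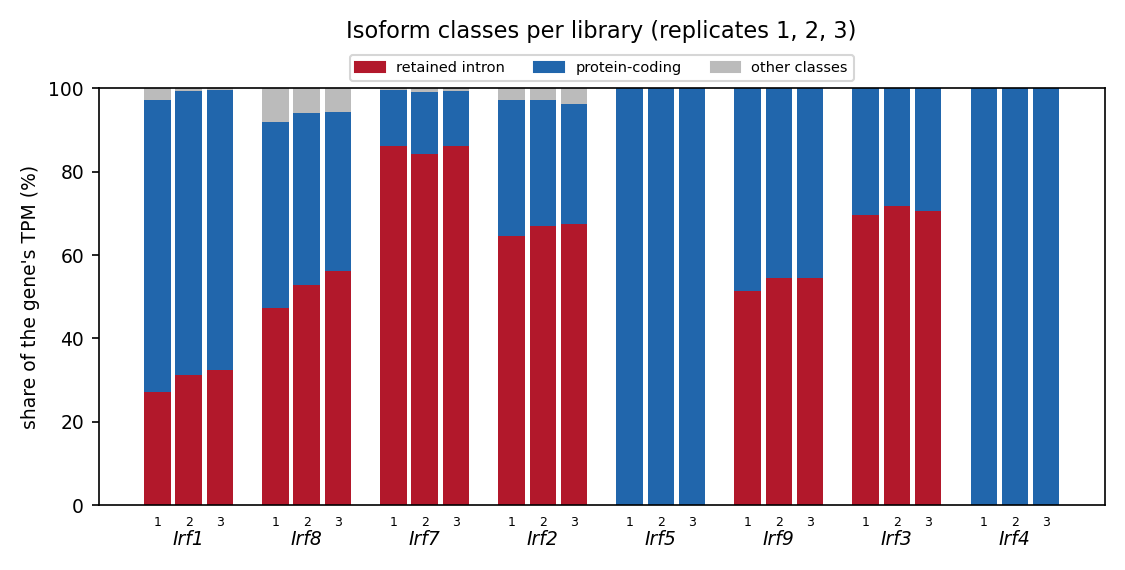
Share of each member's TPM in percent assigned to retained-intron, protein-coding and other isoform classes, with a stacked bar per library (replicates 1, 2 and 3 from left to right). Retained-intron isoforms hold a mean of 85.5% in Irf7 and 30.2% in Irf1, and Irf5 and Irf4 have no isoform of that class.

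The isoforms behind these ratios differ in how much intron they hold. In Irf7, Irf7-210 led with 37.3% ± 2.55 of the gene's TPM, followed by Irf7-213 with 21.4% ± 3.21 and Irf7-211 with 17.1% ± 5.39. Irf7-213 is 3240 nt long and holds all 9 introns of the longest coding isoform, Irf7-203, which are 75 to 345 nt long. Irf7-210 holds intron 5, of 165 nt, but 69 of its 1922 nt (3.59%) lie outside the exons of coding isoforms and 0 nt are found in no other isoform. Of the retained-intron isoforms of Irf7, only Irf7-213 has bases found in no other isoform, 756 nt. The share given to Irf7-210 therefore rests on how the quantifier shared reads among overlapping isoforms. The retained share of Irf7 is not a direct count of intron reads.

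The borders of Irf7 introns 5, 3 and 9 are printed from the minus strand of mm10, because intron 5 is the one held by the leading isoform, intron 3 is held by Irf7-205 and Irf7-209 as well as by Irf7-213, and intron 9 is the shortest. Each border has 10 exonic and 20 intronic bases, with the GT of the donor or the AG of the acceptor in capitals.
Irf7 intron 5 (chr7:141264560-141264724), donor: gcccacacagGTacatctggtccatccttc
Irf7 intron 5, acceptor: ccggggacctcttgcttcAGgttctgcagt
Irf7 intron 3 (chr7:141265292-141265376), donor: gatcttcaagGTggtacccagtcctgccct
Irf7 intron 3, acceptor: tgctctctcctctccttcAGgcctgggctg
Irf7 intron 9 (chr7:141263381-141263455), donor: cctggtgaagGTagagcctgggtgggccaa
Irf7 intron 9, acceptor: aacacatgtcctttccacAGctggagccat

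Irf8-207, at 31.7% ± 6.66 of Irf8, has 3243 of its 3469 nt (93.5%) outside coding exons, and Irf2-207, at 17.7% ± 4.43 of Irf2, has 3847 of 3965 nt (97.0%). Irf2-211, which led Irf2 with 27.3% ± 5.50, has 63 of 397 nt outside coding exons and 2 nt found in no other isoform. The retained-intron isoform of Irf1, Irf1-210, has 503 of 799 nt outside coding exons. Irf9-206 holds 4 whole introns, of 98 to 905 nt, and took 19.0% ± 3.64 of Irf9, while the shorter Irf9-204 took 33.5% ± 2.32. Irf3 was spread over 6 retained-intron isoforms, with Irf3-210 the highest at 22.2% ± 3.66. Irf3-208, Irf3-210 and Irf3-212 have 170, 286 and 255 nt found in no other isoform, and Irf3-205, Irf3-207 and Irf3-209 have 0 nt.

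Both quantifications gave Irf7-210, Irf7-213 and Irf7-211 similar shares, with 36.5%, 20.6% and 19.2% in the other. They differed in Irf1, where Irf1-202 held 37.2% ± 5.10 in the main tables and 3.24% ± 2.08 in the other, and Irf1-201 held 5.12% ± 5.22 in the main tables and 22.0% ± 1.71 in the other. In Irf5 the main tables gave 70.2% ± 6.77 to Irf5-201 and 27.9% ± 6.33 to Irf5-202, while the other quantification gave 36.9% ± 8.68 to Irf5-204 and 32.0% ± 8.77 to Irf5-203, short isoforms of 402 and 350 nt. Irf2-203, of 352 nt, held 2.95% ± 0.871 in the main tables and 36.3% ± 2.92 in the other, and the noncoding Irf8-203, of 596 nt, held 6.63% ± 1.37 in the main tables and 33.2% ± 2.43 in the other. For Irf1, Irf5, Irf2 and Irf8 the gene level was higher in the other quantification as well.

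**Figure D4:**
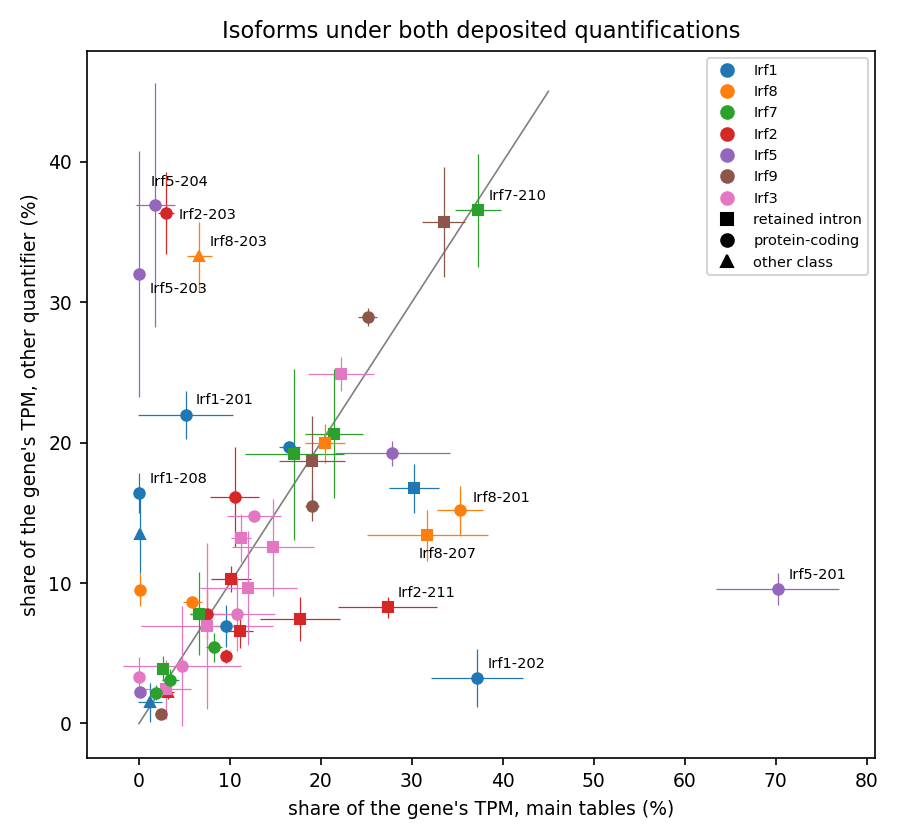
Share of the gene's TPM held by each isoform with at least 1% under either quantification, in percent, main tables on the horizontal axis and the other quantification on the vertical axis, with SD over 3 libraries as bars, colours for genes and marker shapes for isoform classes. The Irf7 isoforms lie near the line of equal shares, while Irf5-201 (70.2% in the main tables), Irf1-202, Irf5-203, Irf5-204, Irf2-203 and Irf8-203 lie far from it.

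Annotated neighbours share exonic bases with several members, and the strand setting is not given in the sources used here, so reads of genes on opposite strands cannot be told apart. Gm17334, a protein-coding entry on the opposite strand within Irf1, had 175 ± 38.1 TPM and shares 135 nt with it. The 3′ end of Irf5 shares 411 nt, 14.1% of its exonic bases, with Tnpo3, a nuclear import receptor gene on the opposite strand at 39.2 ± 6.32 TPM. The shared bases lie in Irf5-205 and Irf5-206, which held 0.143% and 0% of the gene's TPM in the main tables. With the other quantification these isoforms held 2.24% and 0.0526%. Irf5-201 and Irf5-202, which held 70.2% and 27.9% in the main tables, share 0 nt with opposite-strand exons. Irf7 shares 45 nt with Phrf1 (39.9 ± 5.04 TPM) and Irf3 shares 88 nt with Bcl2l12 (0.957 ± 0.384 TPM), both on the opposite strand. Irf9 shares 123 nt on its own strand with Rnf31 (119 ± 7.89 TPM), a subunit of the linear ubiquitin ligase, so the split of reads there is uncertain.

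The genes listed as acting with the family were present almost throughout, but the lists were chosen with earlier results of these data known. Of all protein-coding genes, 41.5% had a mean of at least 1 TPM. All 16 activators of Irf3, Irf5 and Irf7, meaning receptors, adaptors and kinases, had a mean of at least 1 TPM, with a median of 14.7 TPM. They were led by the kinase gene Ikbke at 732, 726 and 843 TPM in replicates 1, 2 and 3, above Irf1 in each, and then by Ikbkb at 105 ± 24.7 and Tbk1 at 94.3 ± 11.4 TPM. The adaptor gene Mavs was lowest at 2.51 ± 0.834 TPM. Of the DNA-binding partners 13 of 14 were at that level, with a median of 29.4 TPM. Stat2, which binds IRF9, was highest at 357, 377 and 458 TPM, above Irf9 itself in every library, and was followed by Nfkb1 at 263 ± 14.9 TPM. Spib, the lymphoid relative of PU.1, was lowest at 0.03 ± 0.0173 TPM.

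All 14 corepressors and negative regulators reached 1 TPM, where 41.5% of protein-coding genes did, with a median of 21.2 TPM. Tnfaip3, which encodes a ubiquitin-editing enzyme, led with 461 ± 100.1 TPM, followed by the ubiquitin ligase genes Trim30a at 211 ± 55.4 and Trim21 at 140.4 ± 48.6 TPM. All 17 target genes reached it too, with a median of 149 TPM, above the 79.8 TPM of the members. The antiviral genes Mx1 and Rsad2 led with 2249 ± 577 and 1124 ± 348 TPM, Cxcl10, a chemokine gene, followed with 606 ± 155 TPM, and Ifnb1 was lowest at 9.01 ± 2.19 TPM.

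**Figure D5:**
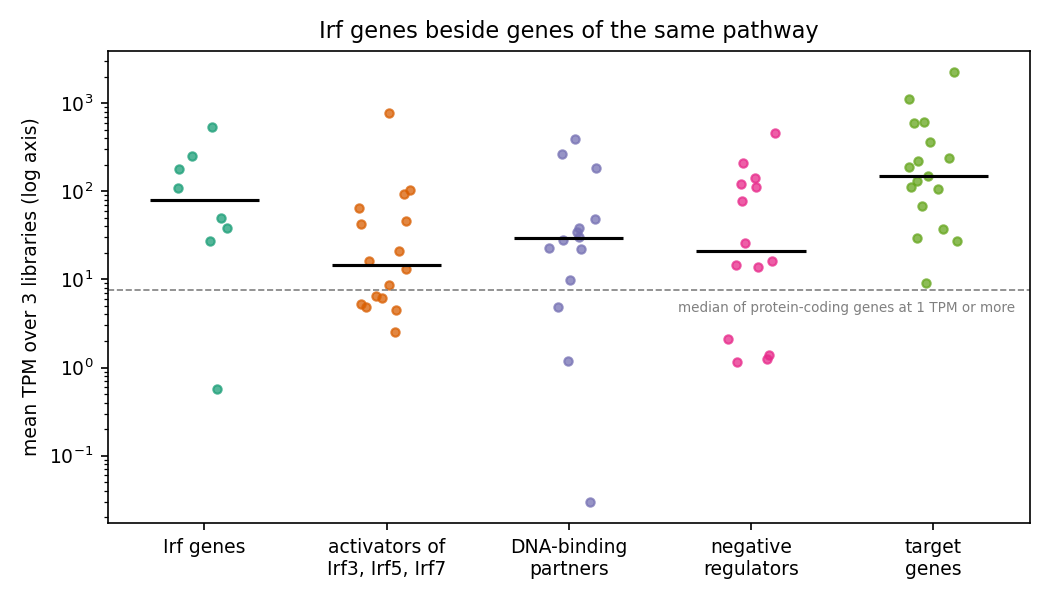
Mean TPM over 3 libraries on a log axis for the members and for each pathway list, with a point per gene, a bar for the median of each list and a dashed line at 7.53 TPM, the median of protein-coding genes with at least 1 TPM. The members have a median of 79.8 TPM and the target genes one of 149 TPM.

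By isoform ratio, 3 of 12 tested activators were higher in retained-intron isoforms and 3 lower, 4 of 10 partners were higher and 4 lower, and 2 of 9 negative regulators were higher and 1 lower, where 19.4% of all tested genes were higher and 29.8% lower. Of the 8 tested target genes, 4 were higher and 0 lower, with a median log2 ratio of 1.02, beside -0.23 over all genes tested. The ratios of the lists were taken from the main tables only and not checked with the other quantification. Variation between libraries was called in 14 of 16 activators, 13 of 13 partners, 12 of 14 negative regulators and 17 of 17 target genes, where 68.8% of all tested genes were.

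The genes nearest to Irf1 in profile over the 3 libraries were Cux1, a homeobox factor gene, and Cdc14a, a phosphatase gene. Their centred log2 CPM differed from that of Irf1 by a root mean square of 0.000897 and 0.00160. With 3 libraries this measure separates little, since 1298 of 8209 genes compared were within 0.1 of Irf1.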

How the data were processed

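The main tables, deposited by the authors per gene and per transcript for each of the 3 libraries, give expected counts (read totals shared among features), TPM and isoform percent in the column layout of RSEM. They also give TPM interval bounds of unstated level, which were planned beside each level but not used. The TPM of Irf1 lay above its upper bound in each library. The upper bounds of Irf4 were 1.20, 1.95 and 1.56 TPM in replicates 1, 2 and 3. The other quantification is a deposited table per transcript with estimated counts and TPM, in the column layout of kallisto and derived from reads without a listed alignment. Per the deposited notes the build is mm10 with GENCODE M21; tool names and versions and the strandedness used are not stated in these sources. Unannotated entries, at 0.179% to 0.845% of expected counts, stayed out of library sizes and tests.

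Expected counts were rounded and scaled with TMM factors (edgeR 4.0.16). Variation was tested by chi-square where the mean count reached 10, and isoform ratios with limma 3.58.1 where it reached 50, both with Benjamini-Hochberg adjustment and a threshold of 0.05. DESeq2 1.42.0 size factors, library totals, other count minimums, pseudocounts and thresholds, the other quantification and leaving out each library were the alternatives. Both tests were tried on simulated data. Where the spread was simulated gene by gene in place of from limma's fitted prior, limma called more unshifted genes than the nominal rate, so ratio calls near the threshold are less certain. The same chi-square test on each pair of libraries called 6687 to 7755 genes, so no library was a second deposit of another.

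Members and lists were chosen with earlier results of these data known. Named genes are all members, the 3 highest and the lowest of each list, the 2 genes nearest in profile to the highest member, and genes overlapping a member; some genes under this rule are not reported here. Markers and isoforms named besides were chosen after their values were seen. Promoters came from RefSeq (GRCm38.p6) and intron borders from GENCODE M21. A planned comparison of protein sequences was not made, and these are not used here. Intervals for counting error were not computed, since expected counts are not independent molecules. The chi-square test of variation treats them as independent, which is a limit on its p-values. Computations used R 4.3.3, Python 3.11.15 and pandas 2.3.3.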

Additional observations from a re-analysis of the deposited data

How the results depend on the processing

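The other quantification moved the mean levels of Irf1 (738 TPM), Irf8 (431 TPM), Irf2 (190.3 TPM), Irf5 (181 TPM) and Irf9 (32.2 TPM) by more than their SD, reversed Irf7 minus Irf2 to -0.58, and called 4708 of 7057 genes by isoform ratio, where the main tables called 2760 of 5602. The Irf2 isoform ratio reversed to -0.999 under it. The cause was not tested. Leaving out each library in turn gave 3 to 6 members called for variation, where 6687 to 7755 genes were called in place of 9769. By isoform ratio 1 to 4 members were called, where 1586 to 2660 genes were called in place of 2760, with 2 libraries left in each fit. Members higher in retained-intron isoforms numbered 1, 1 and 3 without replicates 1, 2 and 3, where 11.5%, 16.9% and 14.8% of 5602 genes were. Those lower numbered 0, 0 and 1 in the same order, where 16.8%, 22.8% and 32.7% of genes were. Counts of list members at 1 TPM or more, recomputed without each library after the data were seen, stayed within 1 of those reported. Other scalings, count minimums and pseudocounts kept each member's level within its SD, each neighbour difference in its direction and each count within 1.5 times. No paired analysis was possible because the series holds 1 group. Isoform shares are limited by bases that isoforms share, and Irf4 by 43 to 74 expected counts a library.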

Other observations

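Irf2, the longest member with a span of 107727 nt, holds 3 annotated opposite-strand entries within its introns that share 0 nt with its exons. Gm45479 had 22.2, 34.3 and 44.5 TPM in replicates 1, 2 and 3, Gm45481 had 7.59, 13.1 and 22.9 TPM, and Gm31172 had 4.26, 7.14 and 12.55 TPM. Each was highest in replicate 3, as Irf2 itself was. Gm31172 had a mean of 7.98 TPM in the main tables and 87.4 TPM in the other quantification. Since the strand setting is not given in the sources used here, these entries cannot be told apart from intronic RNA of Irf2. Irf8 lies within the span of the same-strand entry Gm20388, which had 2.25 ± 1.01 TPM and shares 0 exonic nt with it.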
